A study of Drosophila melanogaster with 2 samples.

Results

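Binding regions of Escargot at the T-box transcription factor genes of Drosophila melanogaster are described from peak lists of chromatin immunoprecipitation followed by sequencing (ChIP-seq). The members were the 8 genes Doc1, Doc2, Doc3, mid, H15, bi, org-1 and byn. A peak was given to a member when the protein-coding start site closest to its summit, the base of highest signal, was the member's, or when the summit lay inside the member's gene. This gave 11 of the 4397 peaks on the 7 chromosome arms, at 6 of the 8 genes. Doc1 and Doc2 had 3 peaks each, mid had 2, and H15, bi and org-1 had 1 each. No peak was given to Doc3 or byn. Of 13968 protein-coding genes, 3086 (22.1%) had a peak under the same rule.

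The chromatin came from whole embryos of the strain esg-GFP, aged 0 to 24 h, which carried a transgene that makes Escargot (esg) as a fusion with enhanced green fluorescent protein (eGFP). The labels describe precipitation with an antibody against GFP, although their antibody field names esg. There was 1 group of 2 biological replicates, both from this strain, and no second condition, so values are described and no test between groups was possible. All embryonic stages and cell types were mixed. A peak therefore cannot be assigned to a cell type, and binding in few cells cannot be told apart from weak binding in many. Read depth is unknown, and the labels give sheared fragments of 200 to 800 bp.

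T-box proteins bind DNA through the conserved domain that gives the family its name, and they act in fields of cells that are being given a fate, such as heart, gut and limb primordia. In the fly, several of them work downstream of, or beside, the Dpp and Wingless signals. Escargot is a zinc finger protein of the Snail family, which is known mainly for repression through E-boxes, short DNA sites of the form CANNTG.

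The 4 narrowest T-box peaks, at org-1, Doc2, mid and bi, were also the 4 strongest, and their sequences are shown. They are the plus strand of dm6, read from the RefSeq assembly of the same release, at chrX:8455313-8455545 (org-1), chr3L:9025798-9025996 (Doc2), chr2L:5476765-5476940 (mid) and chrX:4446210-4446328 (bi). Capitals mark matches, on either strand, to the 8 motifs that were searched and are described with the motif counts.
org-1 peak 1: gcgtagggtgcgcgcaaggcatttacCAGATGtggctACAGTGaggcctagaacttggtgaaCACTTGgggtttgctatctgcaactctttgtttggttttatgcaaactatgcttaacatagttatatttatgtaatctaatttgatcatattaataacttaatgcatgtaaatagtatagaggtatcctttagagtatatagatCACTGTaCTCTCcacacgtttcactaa
Doc2 peak 2: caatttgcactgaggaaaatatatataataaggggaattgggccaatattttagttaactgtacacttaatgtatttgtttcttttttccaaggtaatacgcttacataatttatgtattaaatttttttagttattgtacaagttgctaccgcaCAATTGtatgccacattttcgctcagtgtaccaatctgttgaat
mid peak 2: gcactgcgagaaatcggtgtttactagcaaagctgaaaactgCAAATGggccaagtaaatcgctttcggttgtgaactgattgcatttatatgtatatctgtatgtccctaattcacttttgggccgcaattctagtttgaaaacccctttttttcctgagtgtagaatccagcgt
bi peak 1: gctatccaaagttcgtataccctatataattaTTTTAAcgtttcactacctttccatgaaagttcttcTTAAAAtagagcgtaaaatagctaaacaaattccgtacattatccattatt
Long AT-rich runs fill the middle of the org-1 and Doc2 peaks. The GC content of the printed sequences was lowest for bi, at 29.4%, beside 30.2% for Doc2, 36.9% for org-1 and 40.9% for mid. The org-1 sequence is the only one of the 4 with a match to more than 1 motif.

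Each peak carries a signal value given by the authors, whose unit is not stated and which can be compared safely only within a list. Values of the 2 replicates are printed side by side, but their lists need not share a scale. Words such as close or alike describe the printed values alone. The main list, the one named conservative by the authors, was made from both replicates and keeps peaks with an irreproducible discovery rate (IDR) of at most 0.01. The IDR used is the global one, an estimate of the share of irreproducible peaks among all those kept at that limit. The lists give it as −log10, so that the limit is 2. Each replicate also has its own thresholded list and a longer ranked list without the threshold. Peaks at each gene are numbered along the chromosome. Of the 11 T-box peaks, 5 overlapped a thresholded peak of both replicates, 4 a peak of 1 replicate and 2 neither. Over all peaks 2529 of 4397 (57.5%) overlapped both lists. All 11 overlapped both ranked lists, as did 99.0% of all peaks.

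**Figure D1:**
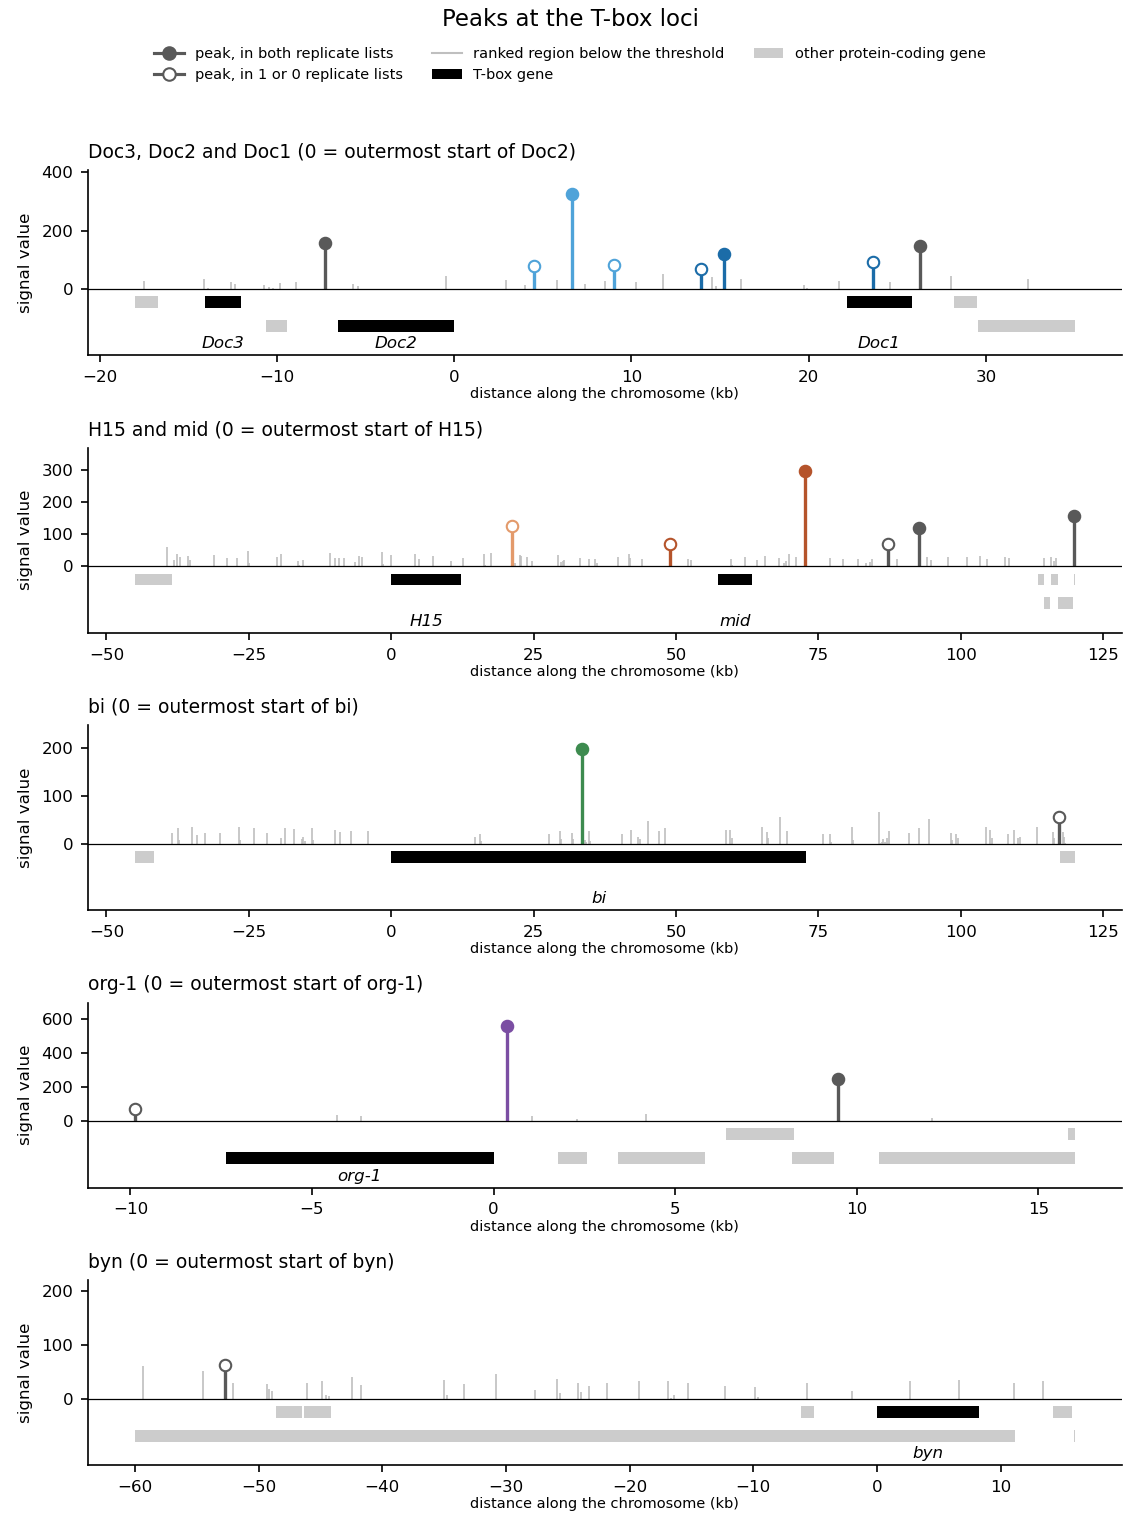
Signal value (vertical axis) of peaks and regions along 5 T-box loci (horizontal axis, kb from the outermost start of the gene named above each panel). Coloured stems are T-box peaks, dark grey stems are peaks nearest to other genes, filled circles mark peaks in both replicate lists, open circles those in 1 or 0, and light grey sticks are ranked regions below the threshold; boxes are genes (black for T-box genes), plus strand above minus strand. The Doc panel has 6 T-box peaks, 5 of them between Doc2 and Doc1, and the byn panel has none near byn.

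The Dorsocross genes Doc1, Doc2 and Doc3 lie close together on chromosome arm 3L. They act redundantly in the amnioserosa, the extraembryonic tissue on the dorsal side of the embryo, and in heart precursors. By the assignment rule, 2 of the 3 genes were given peaks. Doc2 (FBgn0035956, minus strand, positions 9012686 to 9019246) and Doc1 (FBgn0028789, plus strand, 9041375 to 9045042) are divergent, and the 22128 bp between them held 5 summits. A further summit lay in an intron of Doc1.

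The 3 peaks of Doc2 were all intergenic and upstream of its single start site. The strongest of the Dorsocross peaks was Doc2 peak 2, whose sequence is printed above, with its summit 6642 bp upstream. Its signal value was 326 (rank 411 of 4397), and the ranked lists gave it 168 in replicate 1 and 159 in replicate 2. These values differed little, and it was in both thresholded lists. Doc2 peak 1 (chr3L:9023557-9023892, 4479 bp upstream) had a main signal value of 77.8, with 30.0 in replicate 1 and 48.7 in replicate 2. Doc2 peak 3 (chr3L:9028091-9028426, 9013 bp upstream) had 83.5, with 38.1 and 39.7. Both flanking peaks passed the threshold in replicate 2 only, although for peak 3 the values of the replicates were close.

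Doc1 peak 1 (chr3L:9032985-9033320, 8222 bp upstream) had a main signal value of 69.5, with 37.6 in replicate 1 and 30.5 in replicate 2. Doc1 peak 2 (chr3L:9034319-9034654, 6888 bp upstream) had 121, with 58.1 and 69.4. Doc1 peak 3 (chr3L:9042691-9043026), in the intron, had 92.5, with 51.5 and 40.3. Peak 2 was the only one of the 3 in both thresholded lists. Peak 3 was in the list of replicate 1 only, and peak 1 was in neither. The intronic summit lay 1030 bp downstream of the second of the gene's 2 start sites, at 9041829. For peaks 1 and 2 the closest start of any gene was that of the non-coding RNA gene CR46451, at 7776 and 6442 bp.

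From Doc2 peak 1 to Doc1 peak 3 the 6 summits spanned 19134 bp, with gaps of 2163, 2371, 4894, 1334 and 8372 bp. As a description of how crowded this is, 154 of the 4397 summits (3.50%) begin a stretch of that length with as many summits or more. Both the length and the count were taken from these peaks, so the share is no test of crowding. Of 521 intergenic intervals of at least 20 kb, 188 held a summit and 20 (3.84%) held 5 or more, as the interval between Doc2 and Doc1 did. That interval only just meets both limits, which makes this share a description too. Over all 13968 genes, 346 (2.48%) were the nearest gene of 3 or more summits.

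Doc3 (FBgn0035954, plus strand, 9005196 to 9007249) had no peak. The closest main summit was 6778 bp from its start, at position 9011974, and was nearest to CG5194, which lies between Doc3 and Doc2. That peak had a signal value of 156, with 79.0 in replicate 1 and 70.7 in replicate 2, and was in both lists. It was 7272 bp from the start of Doc2. On the other side of the cluster, a peak nearest to Argk2, an arginine kinase gene, lay 3665 bp downstream of a Doc1 start. Its signal value was 147, with 93.2 in replicate 1 and 49.4 in replicate 2. The stretch with the Dorsocross genes therefore held 8 main summits, of which 2 were nearest to other genes. In the ranked list, 5 regions below the threshold were given to Doc3. The strongest of these lay 37 bp upstream of the start of Doc3, with a signal value of 34.9 and an IDR of 0.728.

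midline (mid) and H15 are neighbours on arm 2L. They are related to vertebrate Tbx20 and act in heart formation, in the patterning of embryonic segments and in ventral leg identity. Their 3 peaks were spread over a wide region. H15 (FBgn0016660, plus strand, 5404280 to 5416593) and mid (FBgn0261963, plus strand, 5461639 to 5467610) are separated by 45045 bp, which held 2 summits. The 50126 bp from mid to the next gene, CG14020, held 3, of which 1 was given to mid and 2 to CG14020.

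The strongest was mid peak 2, whose sequence is printed above, in intergenic sequence 15211 bp downstream of the mid start and beyond the gene's end. Its main signal value was 295 (rank 501), with 147 in each replicate, and it was in both thresholded lists. mid peak 1 (chr2L:5453069-5453404, intergenic, 8402 bp upstream) had 69.4, with 34.4 in replicate 1 and 33.5 in replicate 2. The printed replicate values were close for both peaks, but the weaker one was in neither thresholded list. The peaks nearest to CG14020 had values of 68.1 and 120.1, 29828 and 35260 bp from the mid start. The closest start of any gene to mid peak 2 was that of the non-coding RNA gene CR45287, at 10055 bp.

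The single H15 peak (chr2L:5425381-5425716) was intergenic, 20916 bp downstream of a start of H15 at 5404633 and beyond the end of the gene. Its main signal value was 125 (rank 1815). The printed replicate values differed most here among the 11 peaks, with 80.5 in replicate 1 and 39.4 in replicate 2, a ratio of 2.04. It was in the list of replicate 1 only, so H15 had no peak without that replicate. The non-coding RNA gene CR43713 has the closest start of any gene, at 6293 bp.

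bifid (bi), also called optomotor-blind, is related to vertebrate Tbx2 and Tbx3. It acts in the optic lobe and, as a target of Dpp signalling, in the wing disc. The gene (FBgn0000179, plus strand, X 4412856 to 4485647) spans 72792 bp and has 3 start sites. Its only peak lay in an intron, 19140 bp downstream of the start at 4427135. The main signal value was 197 (rank 988), with 77.9 in replicate 1 and 114 in replicate 2. It was the narrowest of the 11 peaks, at 119 bp, and was in both thresholded lists. The higher value was in replicate 2, the opposite of H15. Within the thresholded list of replicate 1 alone, 46.3% of peaks were stronger than the bi peak, and within the list of replicate 2 alone 22.7% were. Between bi and the next gene, CG3556, lay a peak nearest to CG3556, 102966 bp from a bi start. Its signal value was 55.8, and it was in neither replicate list.

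org-1, the relative of vertebrate Tbx1, acts in visceral mesoderm and in the identity of single muscles. It had the strongest peak of the family and the only one at a promoter. The gene (FBgn0021767, minus strand, X 8447691 to 8455069) had its peak, printed above, centred 367 bp upstream of its outermost start. The main signal value was 556 (rank 147), with 285 in replicate 1 and 261 in replicate 2. Both lists held it, and 3.32% of the main list was stronger. The next highest member peak was that of Doc2, with 9.32% of the list stronger, followed by mid with 11.4% and bi with 22.4%. The strongest peaks of H15 and Doc1 had 41.3% and 43.1% of the list above them. Between org-1 and its neighbour CG12123 lay a peak nearest to CG12123, 9675 bp from an org-1 start. Its signal value was 69.7, and it was in neither replicate list.

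**Figure D2:**
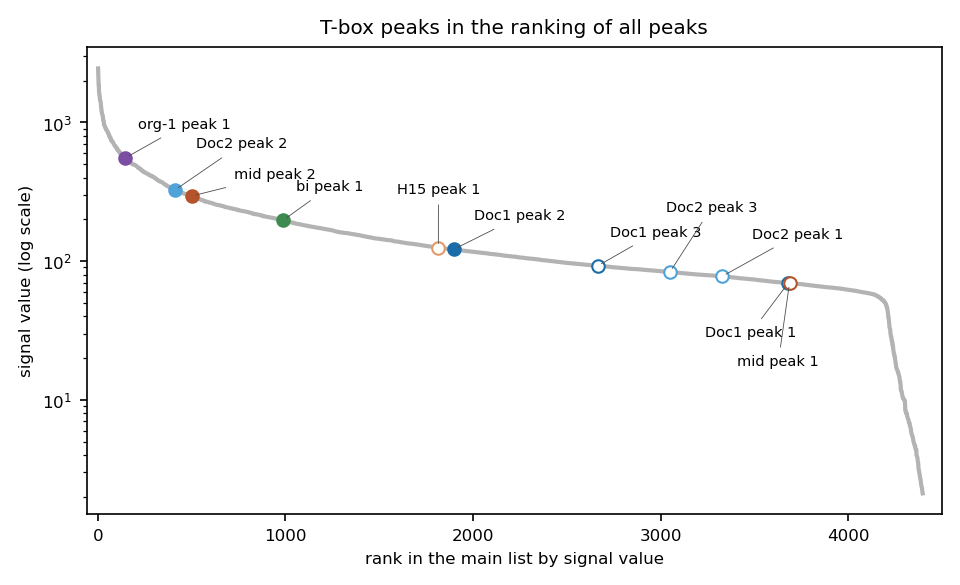
Signal value in the main list (vertical axis, log scale) against rank (horizontal axis) for all 4397 peaks (grey line) and the 11 T-box peaks (circles, filled when in both replicate lists). The org-1 peak is at rank 147 and the weakest, mid peak 1, at rank 3687.

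brachyenteron (byn), the relative of vertebrate Brachyury, is needed for the hindgut. The gene (FBgn0011723, plus strand, 3L 11927693 to 11935919) lies within the longer gene CG44837 on the opposite strand and had no peak. The closest main summit was 52707 bp from the byn start, inside CG44837 but nearest to the start of CG5906, at 3681 bp. That peak had a signal value of 63.4 and was in neither replicate list. In the ranked list, 2 regions below the threshold were given to byn. The stronger was in a coding exon, 6650 bp downstream of the start, with a signal value of 35.7 and an IDR of 0.346. The other, in an intron at 2635 bp, had 32.6 and an IDR of 0.713. Neither byn nor Doc3 had a peak in the other series list or in the thresholded list of either replicate.

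At the threshold, the member peak just inside was Doc2 peak 1, with a −log10 IDR of 2.18. Among the strongest regions of each member below the threshold, the one just outside lay in an intron of bi, with a −log10 IDR of 1.47 (IDR 0.0337) and a signal value of 56.3. Regions below the threshold were common at the large loci, with 40 given to bi, 33 to H15 and 30 to mid, against 8 for Doc1, 9 for Doc2 and 3 for org-1. The strongest of these at Doc1 had a signal value of 51.9 and an IDR of 0.0680. At H15 the strongest had 48.2 and an IDR of 0.0549.

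Because the 2 ranked lists need not share a scale, the ratios between replicates are set beside those of all peaks. The ratio of the signal value in replicate 1 to that in replicate 2 had a median of 1.03 over the 11 peaks, beside 1.09 over the 4355 peaks with both values. It ranged from 0.616, at Doc2 peak 1, to 2.04, at H15. The 5 peaks found in both lists had values of 58.1 or more in replicate 1 and 69.4 or more in replicate 2. H15 peak 1 was the only other T-box peak with such a value in either replicate.

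**Figure D3:**
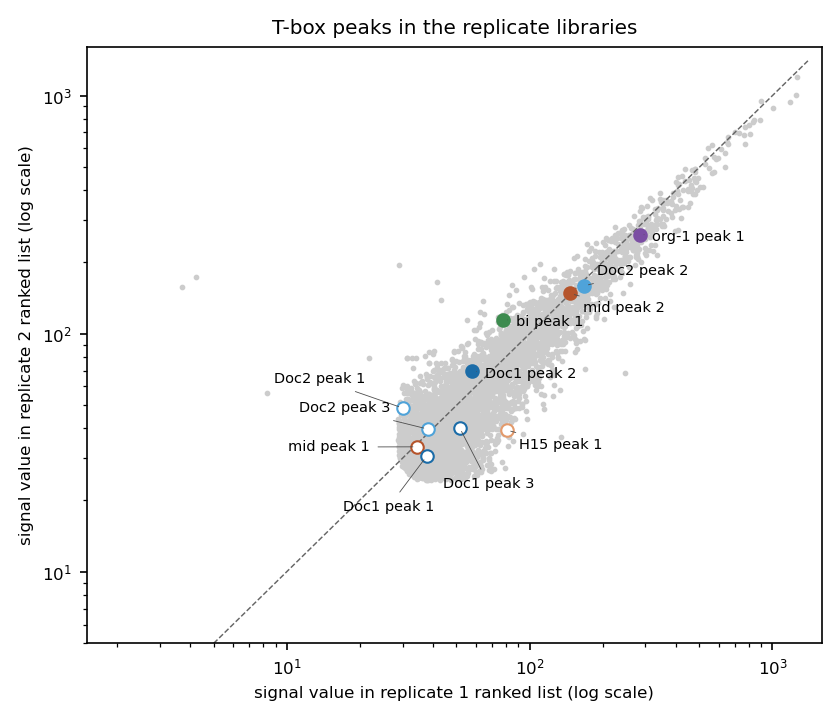
Signal value of each main peak in the ranked lists of replicate 1 (horizontal axis) and replicate 2 (vertical axis), both on log scales, with all peaks in grey, T-box peaks in colour (filled when in both thresholded lists) and a dashed line at equal values. The org-1, Doc2 and mid peaks with the highest values lie close to the line, and H15 lies farthest below it at 80.5 and 39.4.

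Against all peaks, the T-box peaks lay far from start sites, although 6 of the 11 came from the Doc locus alone. The median distance to the nearest protein-coding start was 8222 bp for the 11 peaks and 1036 bp for all 4397. The summit of org-1 alone was within 500 bp of a start (1 of 11, 9.09%), beside 39.7% of all summits. Within 5000 bp were 3 of 11 (27.3%), beside 76.4%. By annotation 9 of 11 (81.8%) were intergenic and 2 (18.2%) intronic, beside 38.3% and 51.5% of all peaks. Of the 11 summits, 7 (63.6%) were upstream of the start they were given to, near the share of 59.2% over all peaks. Distance goes with presence in the lists: of all 1038 peaks over 5000 bp from a start, 49.0% were in both replicate lists, with a median signal value of 93.9. Of the 8 T-box peaks at that distance 4 were in both. The median signal value of all 11 T-box peaks was 121, beside 108 for all peaks.

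The number of peaks, their distance to a start and their intergenic share have to be read beside the extent of each gene. A gene's extent was taken as the sequence whose closest protein-coding start is one of its own. It was 89.0 kb for bi, 57.9 kb for H15 and 56.6 kb for mid, so that more than 98% of genes were smaller. Doc2 had 15.8 kb, Doc1 14.3 kb, org-1 7.74 kb, byn 7.06 kb and Doc3 5.83 kb, and the median over all genes was 4.33 kb. All 5 members with at least 10 kb had a peak, as did 1340 of 3458 genes of that extent (38.8%). Both members without a peak had smaller extents than every member with one. Per 100 kb of extent, Doc1 had 20.9 peaks, Doc2 19.0 and org-1 12.9, while mid had 3.54, H15 1.73 and bi 1.12. The order by peaks per kb thus put the largest loci last. The part of gene extent in these counts and in the distances was not tested. Distances and annotation were not compared with those of peaks at genes of like extent.

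**Figure D4:**
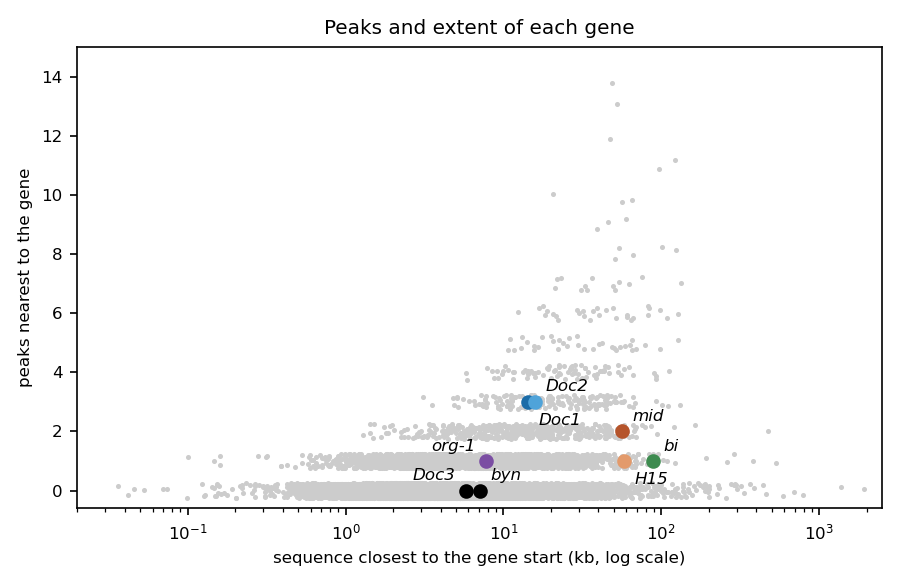
Number of main peaks nearest to each protein-coding gene (vertical axis, grey points spread slightly for visibility) against the extent of the gene in kb (horizontal axis, log scale), with the 8 T-box genes named. Doc1 and Doc2 have 3 peaks at 14.3 and 15.8 kb, bi has 1 at 89.0 kb, and Doc3 and byn have 0 at 5.83 and 7.06 kb.

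Motifs were counted on both strands within 100 bp of each summit, a window of 201 bp. CAGGTG, the E-box bound by proteins of the Snail family, was in 0 of the 11 T-box windows and in 5.28% of all 4397. The general E-box form CANNTG, which includes CAGGTG, was in 8 of 11 (72.7%), beside 57.3%. The matches nearest to a summit were a CAGATG starting 10 bp from the summit of Doc2 peak 1 and a CAAATG starting 43 bp before that of mid peak 2. Doc2 peak 2 had CAATTG, and the bi window had a pair of CAAGTG matches that start before the printed peak. No CANNTG was in the windows of H15 peak 1, Doc1 peak 1 and Doc1 peak 3.

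The 6-mer ACAGTG, listed because of earlier results of these data, was in 1 of 11 windows (9.09%), beside 20.2% of all. That window was org-1, with matches starting 86 bp before and 83 bp after the summit. GAGAG, a site of the GAGA factor, was also found at org-1 alone, beside 19.8% of all windows. The AT-only TTAAAA was in 3 of 11 (Doc2 peak 3, Doc1 peak 2 and bi), beside 53.4%. AGGTGTGA, a form of the site that T-box proteins bind, was in 0 of 11 windows and in 0.273% of all. Its core GTGTGA, which it contains, was in 0 of 11 and 8.21%. CAGGTAG, the site of the early activator Zelda, was in 0 of 11 and 0.728%. AGGTGTGA overlaps a CAGGTG only where a C precedes it. With 11 windows, a count of 0 is uninformative for motifs that are this rare over all windows, and it says only that these letters are not there.

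The T-box windows had a mean GC content of 34.9% ± 4.47 (SD, n = 11), beside 34.2% ± 6.85 for all peaks. Windows centred 1000 bp to either side had 41.6% for the T-box peaks and 42.3% for all. The summit was lower than its flanks in 8 of 11 T-box peaks, beside 81.5% of all peaks. The exceptions were mid peak 2 (42.8% at the summit), Doc2 peak 1 (42.3%) and bi (36.3%), which exceeded their flanks by 5.22, 3.48 and 0.498 percentage points. The lowest was the intronic Doc1 peak, at 28.4%. Within 50 bp of the summit the mean was 29.8% ± 6.09, beside 31.5% ± 8.66.

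**Figure D5:**
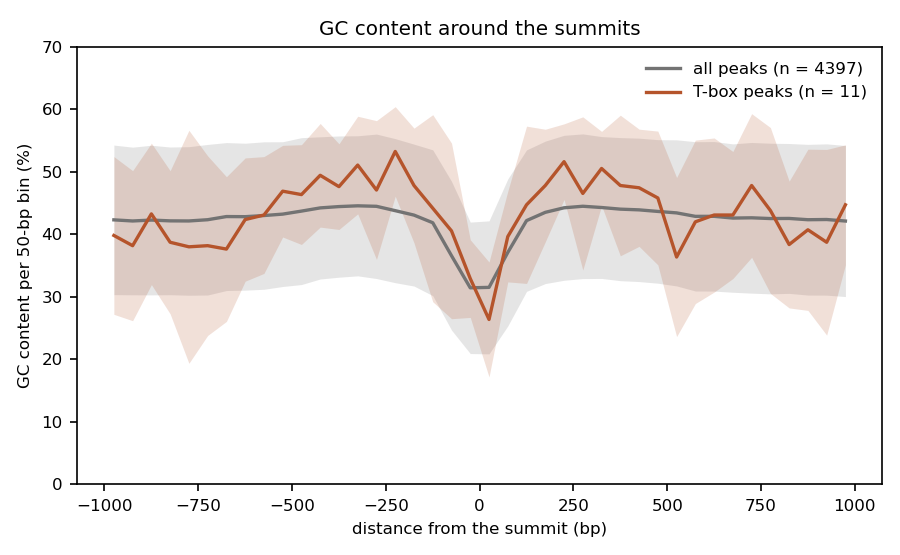
Mean GC content in bins of 50 bp (vertical axis) by distance from the summit (horizontal axis, bp) for the 11 T-box peaks and all 4397 peaks, with bands of 1 SD across peaks. In the bin just before the summit the T-box mean is 32.9% and the mean of all peaks 31.4%. In the bin just after the summit the T-box mean is 26.4% and the mean of all peaks 31.5%.

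Genes that act with the T-box genes were counted in 6 lists, which share some genes and hold 53 in all. Of these, 24 had a peak by the rule used for the members. For 20 of them a summit was nearest to the gene's start, and Egfr, hh, nau and otp had a summit inside the gene that was nearest to another gene's start. The median extent of the 53 genes was 19.9 kb, and over all genes with at least 10 kb the share with a peak was 38.8%. Of 14 genes of dorsal mesoderm and heart, where Doc, mid and H15 act, 5 had a peak. The heart homeobox gene tin had a signal value of 370.5 at 219 bp upstream, the forkhead gene bin 216 and the zinc finger gene zfh1 183. bap, pnr and Hand were among the 9 without. Of 8 genes of amnioserosa and dorsal ectoderm, 4 had a peak. The signal gene dpp had 268, its antagonist sog 226, and ush, a cofactor of the GATA factor Pannier, had 8 peaks up to 249.

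Of 10 genes of the hindgut and posterior terminus, where byn acts, bowl and otp had a peak. bowl, which acts in hindgut patterning, had 5 peaks, the strongest with a signal value of 545 at 202 bp upstream. Of 10 partners of bi in the wing disc and optic lobe, 6 had a peak, among them the Dpp effector Mad with 322, dpp itself and the gene of the Dpp target repressor Brinker, brk, with 223. Of 7 segment and leg partners of mid and H15, 5 had a peak, which was nearest to the gene's start for 3 of them. These were the Hedgehog receptor gene ptc with 268, the signal gene wg with 151 and the limb gene Dll with 121. Of 9 muscle partners of org-1, 5 had a peak, among them jeb, whose product is a ligand of Alk in visceral mesoderm, with 195, the homeobox gene Dr with 172 and tup with 94.4. The list around byn had the fewest genes with a peak (2 of 10), and no difference between lists was tested.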

How the data were processed

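The lists hold anti-GFP ChIP-seq peaks of esg-eGFP embryos. Per the labels and the deposited text descriptions, coordinates are dm6, and peaks came from alignments of the replicates and of a control and were selected by IDR. The aligner and the peak caller were not given in the sources used here. The signal value is the authors' and has no stated unit. The deposited ranked lists give the global IDR as its −log10. The main list held 4419 peaks, 4397 of them on the 7 arms, the other series list 3761, and replicates 1 and 2 had 3138 and 3357. The 8 further columns of per-replicate values in the ranked series list were not used.

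Annotation was Ensembl release 115 (BDGP 6.54). Sequence was the RefSeq assembly, whose arm lengths hold every peak and gene. Positions are 1-based, and distances run to the nearest protein-coding start. Replicate overlap needed at least 1 bp. The 177 genes that share every start with another gene have no extent of their own and were left out of comparisons of extent. Ranks run over the arms.

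Members and lists were chosen with earlier results of these data known, as were the motifs, the gene extents and the GC flanks. All 8 members are named, with the neighbours that were nearest to a summit in an interval shared with a member. CG44837, which holds byn, is named too, with CG5906, the gene nearest to a summit inside it. Of each partner list, up to 3 genes with the strongest peaks are named. CR43713, CR45287, CR46451, Egfr, hh, nau, otp and the genes named as having no peak were chosen after their values were seen. For the member with most peaks and the one with the strongest peak, the 2 genes most alike were named. No test was made. The calculations were tested on simulated data. Python 3.11.15, numpy 2.4.6, pandas 2.3.3 and matplotlib 3.10.9 were used. Alternative settings were other gene assignments, overlaps and windows, the stronger part of the main list by signal value, single replicates, and the other list of the series.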

Additional observations from a re-analysis of the deposited data

How the results depend on the processing

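The 6 members with a peak stayed at 5 or 6 in the other series list, in each replicate alone, in the upper part by signal value and with starts of non-coding genes included. They fell to 2 by gene body alone and to 1 within 1000 bp of a start. The 11 peaks became 9 in the other series list, 7 with each replicate alone and 6 in the upper part. They became 2 by gene body, 1 within 1000 bp and 7 with starts of any gene. mid peak 1 and Doc1 peak 1 were absent from the other series list and from both thresholded replicate lists. Thus 81.8% of T-box peaks were in the other list, beside 80.1% of all peaks. The median distance of 8222 bp became 6888 in the other list, 6889 to 6932 with 1 replicate left out and 11050 in the upper part. Mean GC content (34.9%) was 34.4 to 34.7% with 1 replicate left out, 35.6% in the upper part and 29.8% within 50 bp. ACAGTG was in 0 windows of 50 bp either side, and CAGGTG in 0 of the T-box windows under every alternative run. With the ranked lists, 11 peaks in place of 5 were in both replicates. The replicate 1 list put 69.4% of its peaks above the strongest Doc1 peak, beside 43.1% in the main list. No paired analysis was possible because there was 1 group and no test. Unknown depth limits what the absence of a peak at Doc3 or byn can show.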

Other observations

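Peak width split the T-box peaks by strength. Of the 11, 7 were exactly 336 bp wide, with a median signal value of 83.5, and the 4 of other widths (119 to 233 bp) had a median of 310.5. Over all peaks 79.3% had the width of 336 bp, with medians of 92.8 and 307. The 4 narrower peaks of org-1, Doc2, mid and bi were all in both replicate lists, while 1 of the 7 wide ones, Doc1 peak 2, was.

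Among the 173 other genes that were nearest to exactly 3 peaks, those whose strongest signal value was closest to that of Doc1 were CG6231 (121) and CG32137 (122), and for Doc2 (326) they were Act5C (335) and CG7694 (336). Among the 2001 other genes with 1 nearest peak, koko (556) and gce (558) were closest to org-1. All 6 strongest peaks of these genes lay within 4683 bp of their start, and those of CG6231, CG32137 and koko within 416 bp. The likeness is over peak count and 1 signal value in a single list, and says nothing of function.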
